A study of Homo sapiens with 12 samples.

Results

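The alpha and beta tubulins are the protein pair from which microtubules are built. The 10 tubulin genes described here are the alpha genes TUBA1A, TUBA1B, TUBA1C and TUBA4A and the beta genes TUBB, TUBB2A, TUBB2B, TUBB3, TUBB4B and TUBB6. They were chosen by name, with no threshold on their values, from the 19775 genes with at least 1 probe set that carries their symbol alone. All probe sets of a gene were kept apart, because tubulin genes are so alike that a probe set made for one can bind transcripts of another. The 10 genes had 20 such probe sets, of which 19 exceeded a log2 level of 4 in at least 3 of the 12 arrays and were tested. The one left out was 1565668_at of TUBA1B, whose group means lay between 1.91 and 1.93.

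Alpha and beta tubulin join as dimers, and dimers add to and leave the ends of microtubules, which carry cargo, shape the cell and form the mitotic spindle. Newly made tubulin passes through the chaperones prefoldin and CCT and a set of tubulin cofactors before it forms dimers. Cells also adjust tubulin messenger RNA to the amount of free dimer: the factor TTC5 binds the start of nascent tubulin chains and has their messenger RNA degraded. In epithelia most tubulin comes from a few widely expressed genes, while TUBB3 is best known as the beta tubulin of neurons.

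The cells were HK-2, an immortalised line of human proximal tubular epithelium, grown in culture without any other manipulation named in the labels. Both 12 h and 48 h of exposure were sampled, with 3 biological replicates for each of the 4 groups: Di at 12 h, its vehicle control at 12 h, Di at 48 h and its vehicle control at 48 h. Neither the identity nor the dose of the compound called Di is given in the sources used here. RNA was hybridised to Affymetrix arrays, and a level below is a GCRMA value on the log2 scale, so that a difference of 1 is a doubling. A single line was used, so that the spread is between cultures of that line. Nothing in the labels says which cultures or arrays were handled together.

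The arrays were alike in scale, with medians of 2.969 to 3.062, and replicates correlated at 0.995 to 0.998. HK-2 cells expressed all 7 epithelial markers examined, but of 10 proximal tubule markers only PAX8 exceeded the floor in these arrays, and markers of the mature tubule such as LRP2, CUBN and AQP1 did not. Of 10 neuronal markers, 4 exceeded the floor (ELAVL3, SNAP25, NEFL and SYT1), and STMN2, DCX, RBFOX3, SYN1, SYP and ELAVL4 did not. Of the 7 endothelial and leukocyte markers, the 6 with a probe set lay under it.

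Of the 19 tested probe sets, 14 carry the suffix _x_at, which the maker of the arrays gives to sets with probes that also match other genes, and 1, the set of TUBA1A, carries _s_at, given to sets whose probes are shared by related transcripts. The 4 sets without such a warning belong to TUBA4A, TUBB, TUBB2A and TUBB6. TUBB therefore has 1 set without the warning and a pair with it, while TUBA1B, TUBA1C, TUBB2B, TUBB3 and TUBB4B are known here only through _x_at sets. One more set, 209372_x_at, is annotated to both TUBB2B and TUBB2A.

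TUBA1A, TUBA1B and TUBA1C are neighbours on chromosome 12, and TUBB2A and TUBB2B are neighbours on chromosome 6. RefSeq promoters (build GRCh38.p14) were found for all 10 genes, 15 promoters in all. The 4 below are shown because at 48 h TUBA1A and TUBB2B were lower in Di cultures and TUBA4A and TUBB2A higher. Each line holds the 250 bases before the start site, from chr12:49189081-49189330 (TUBA1A), chr2:219253919-219254168 (TUBA4A), chr6:3157545-3157794 (TUBB2A) and chr6:3227654-3227903 (TUBB2B), all on the minus strand and read 5′ to 3′.
TUBA1A: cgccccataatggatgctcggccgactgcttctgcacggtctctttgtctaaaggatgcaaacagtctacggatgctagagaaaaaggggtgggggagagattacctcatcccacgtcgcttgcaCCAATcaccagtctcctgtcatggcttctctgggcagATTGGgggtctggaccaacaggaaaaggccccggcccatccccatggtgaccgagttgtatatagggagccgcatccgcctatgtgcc
TUBA4A: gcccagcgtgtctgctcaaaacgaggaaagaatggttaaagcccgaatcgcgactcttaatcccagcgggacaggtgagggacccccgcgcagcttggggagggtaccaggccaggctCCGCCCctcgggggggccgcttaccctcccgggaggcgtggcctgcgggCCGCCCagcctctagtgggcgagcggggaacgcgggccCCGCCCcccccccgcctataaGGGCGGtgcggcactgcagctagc
TUBB2A: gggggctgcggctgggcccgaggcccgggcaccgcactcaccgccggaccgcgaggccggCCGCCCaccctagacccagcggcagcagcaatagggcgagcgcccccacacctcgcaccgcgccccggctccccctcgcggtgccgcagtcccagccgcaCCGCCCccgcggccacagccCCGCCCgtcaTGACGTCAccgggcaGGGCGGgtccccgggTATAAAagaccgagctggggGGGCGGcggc
TUBB2B: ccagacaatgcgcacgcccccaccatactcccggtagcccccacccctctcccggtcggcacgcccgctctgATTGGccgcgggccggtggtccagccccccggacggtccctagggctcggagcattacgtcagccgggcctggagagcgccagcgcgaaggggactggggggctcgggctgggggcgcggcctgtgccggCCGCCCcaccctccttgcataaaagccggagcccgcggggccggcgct
Capitals mark matches, on either strand, to any of 5 motifs: CCAAT (the box bound by NF-Y), TATAAA (the TATA box), GGGCGG (the GC box bound by Sp1), TGACGTCA (the cAMP response element) and TGACNNNGC (the core of the antioxidant response element). A match on the other strand reads as the reverse complement, so that ATTGG is a CCAAT box and CCGCCC a GC box. No match overlapped another in these 4 promoters.

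TUBA1A held 2 CCAAT boxes, 125 and 88 bases before the start site, and none of the other motifs. The TUBA4A window held 4 GC boxes. In TUBB2A there were 5 GC boxes, a cAMP response element 60 bases before the start and a TATA box 30 bases before it, while its neighbour TUBB2B held 1 CCAAT box and 1 GC box. Among 35116 RefSeq promoters of the same length, 32.0% held CCAAT, 10.7% TATAAA, 42.6% GGGCGG, 1.65% TGACGTCA and 10.9% TGACNNNGC. Of the 15 tubulin promoters, 9 held CCAAT, 9 GGGCGG and 1 each of the other motifs. Some genes have several promoters, and overlapping windows of TUBA1C share 1 CCAAT box, which is thus counted more than once. The 4 windows printed were picked by their differences at 48 h and do not stand for the rest. TUBA1B was also lower in Di at 48 h, but its window held 3 GC boxes and no CCAAT box. TUBB6, not called at 48 h, held a CCAAT box in 1 of its windows. These matches describe the letters of the windows, and their part in the levels below was not tested.

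At 12 h no tubulin probe set was called different between Di and control. A call here is an adjusted p under 0.05 in limma, fitted to all 12 arrays and adjusted by Benjamini-Hochberg over all 21715 probe sets kept. The 19 log2 differences ran from -0.17 to 0.19, with a median of 0.04 against a median of -0.04 over all probe sets. Over the whole array 11.9% of probe sets were called at 12 h, 4.90% higher and 6.97% lower in Di. That split depends on scaling, since 41.3% of the calls were higher on the deposited values and 52.6% after quantile normalisation. Only 1 tubulin set passed an unadjusted p under 0.05.

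That set was 212320_at of TUBB, the most widely used beta tubulin gene, which read 12.72, 12.74 and 12.70 in Di arrays at 12 h, against 12.82, 12.96 and 12.89 in controls. The 3 Di values lay below all 3 control values, by a mean of only -0.17 ± 0.0738 (SE, limma, adjusted p = 0.158). TUBA1A read 14.09, 14.05 and 14.08 in Di arrays at 12 h, against 14.10, 14.12 and 14.24 in controls. TUBA4A, an alpha tubulin abundant in platelets and muscle, read 10.66, 10.68 and 10.60 in Di arrays, against 10.55, 10.50 and 10.59 in controls. Neither group pair overlapped, but the differences of -0.08 ± 0.0946 and 0.10 ± 0.0728 (SE) were not called. In all, 4 of the 19 sets had groups that did not overlap at 12 h, against 32.7% of all probe sets.

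After 48 h the tubulins had parted. In Di cultures 16 of the 19 probe sets were lower than in controls, TUBA4A and TUBB2A were higher, and TUBB6 was not called. Most of the 16 are _x_at sets that may read each other's transcripts, and of the 4 sets without _x_at or _s_at, 2 were higher (TUBA4A and TUBB2A) and 1 lower (TUBB). The median difference was -0.50 on the log2 scale, with a range of -1.48 to 0.51, while the median over all probe sets was -0.01. Change was common at this time: 46.0% of all probe sets were called, 21.2% higher and 24.8% lower. For 18 of the 19 tubulin sets the Di and control arrays did not overlap, against 58.0% of all probe sets. The plot of levels on the 12 arrays shows each gene on its own scale.

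**Figure D1:**
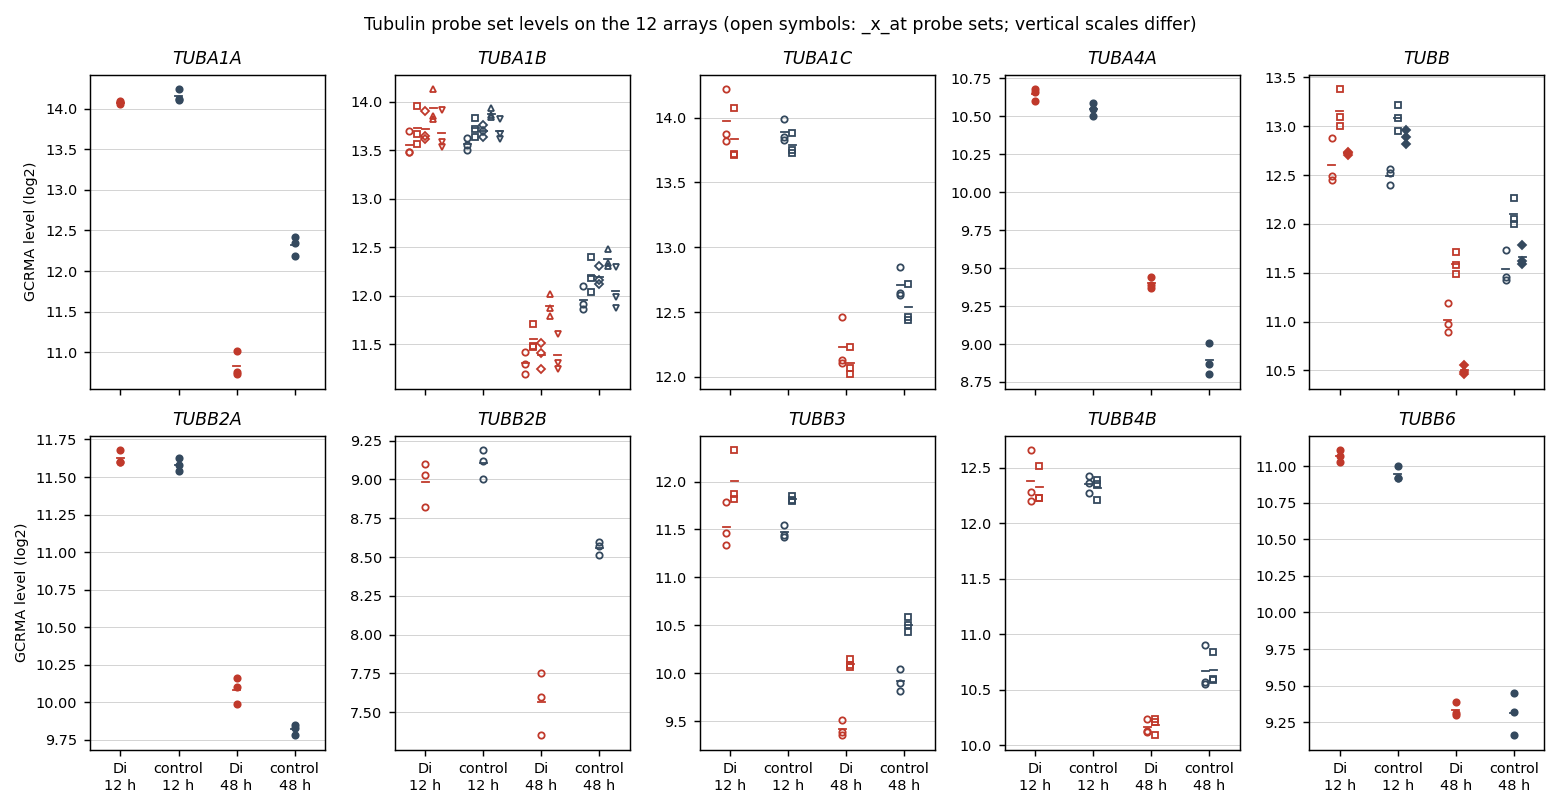
GCRMA level (log2, vertical axis, scale differing between panels) of each tested tubulin probe set on each of the 12 arrays, with 1 panel per gene, Di in red, control in dark blue, and bars at the mean of 3 arrays. Open symbols are _x_at probe sets and symbol shapes tell the probe sets of a gene apart; all sets are lower at 48 h than at 12 h, and at 48 h Di lies below control except in TUBA4A, TUBB2A and TUBB6.

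TUBA1A had the widest gap of the 19 sets. This gene, a major alpha tubulin of developing neurons, read 10.73, 10.76 and 11.02 in Di arrays at 48 h, against 12.18, 12.35 and 12.42 in controls. Every Di array lay more than a full log2 unit below every control array, and the mean difference of -1.48 ± 0.0946 (SE, limma, adjusted p = 3.5e-07) is a 2.79-fold lower level. As its probes are shared with related transcripts, the reading may hold signal of other alpha tubulin genes.

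The other alpha tubulins of the same cluster moved less. TUBA1B, the most widely expressed alpha tubulin, was lower in all 5 of its tested sets, by -0.81 to -0.48. Its set 211072_x_at read 11.51, 11.41 and 11.25 in Di arrays at 48 h, against 12.12, 12.16 and 12.31 in controls, a difference of -0.81 ± 0.1 (SE, limma, adjusted p = 5.92e-05) with no overlap. TUBA1C, a close copy of it, was lower by -0.48 ± 0.127 and -0.44 ± 0.116 in its pair of sets. On the first of these the Di arrays read 12.46, 12.13 and 12.11, against 12.65, 12.63 and 12.85 in controls, so that the highest Di array lay just under the lowest control.

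TUBA4A went the other way. It read 9.39, 9.37 and 9.44 in Di arrays at 48 h, against 8.87, 8.80 and 9.01 in controls. All 3 Di arrays were above all 3 controls, and the mean was higher by 0.51 ± 0.0728 on the log2 scale (SE, limma, adjusted p = 0.000181), or 1.42-fold. This was the largest increase among the 19 sets, and it was called in each of the 19 alternatives tried, at 0.46 to 0.56.

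Among the beta tubulins, TUBB fell on all 3 of its sets, but by different amounts. Its set without the cross-hybridisation warning read 10.56, 10.48 and 10.46 in Di arrays at 48 h, against 11.62, 11.78 and 11.59 in controls. The difference was -1.17 ± 0.0738 (SE, limma, adjusted p = 3.25e-07), a 2.24-fold lower level, with each group spread over less than 0.2. The TUBB sets with the _x_at suffix gave -0.52 ± 0.131 and -0.51 ± 0.119, both smaller in size than the first. Their deviations from the group means correlated with those of the first set at -0.073 and -0.134 over 12 arrays, given as a description. Which of the sets follows TUBB alone was not tested.

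TUBB2A and TUBB2B, which are neighbours on chromosome 6 and encode nearly the same protein, differed in opposite directions on their single-gene sets. The TUBB2B set is an _x_at set, so that its reading may hold signal of other tubulin genes. TUBB2A read 10.10, 10.16 and 9.99 in Di arrays at 48 h, against 9.78, 9.83 and 9.85 in controls. Its Di arrays were all above the controls, by a mean of 0.26 ± 0.069 (SE, limma, adjusted p = 0.00992). TUBB2B, prominent in the developing brain, read 7.35, 7.75 and 7.60 in Di arrays, against 8.51, 8.57 and 8.60 in controls. Its Di arrays were all well below the controls, by -0.99 ± 0.111 (SE, limma, adjusted p = 2.71e-05), or 1.99-fold. The set annotated to both genes read 6.63, 7.03 and 6.92 in Di arrays, against 7.17, 7.42 and 7.15 in controls. Its difference of -0.39 ± 0.148 lay between those of the single-gene sets and missed the threshold (SE, limma, adjusted p = 0.0507).

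TUBB3, the neuronal beta tubulin, was lower by -0.50 ± 0.114 and -0.40 ± 0.118 (SE) in its pair of sets. On 202154_x_at the Di arrays read 9.51, 9.39 and 9.35 at 48 h, against 9.81, 9.90 and 10.04 in controls. The groups did not overlap on either set, but on 213476_x_at the call was lost when the third control array at 48 h was left out (-0.36, limma adjusted p = 0.0568). TUBB4B, a broadly expressed beta tubulin that cilia also use, was lower by -0.50 ± 0.129 and -0.50 ± 0.105. On 208977_x_at it read 10.24, 10.12 and 10.13 in Di arrays, against 10.55, 10.57 and 10.90 in controls, again with no overlap.

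TUBB6, a beta tubulin whose excess is known to disrupt microtubules, read 9.39, 9.31 and 9.30 in Di arrays at 48 h, against 9.16, 9.32 and 9.45 in controls. The Di arrays fell within the range of the controls. The difference of 0.02 ± 0.0807 (SE, limma, adjusted p = 0.835) had a 95% interval of -0.15 to 0.20, which holds none of the differences of the other 18 sets. Some of their intervals overlap it, such as that of TUBB2A at 0.11 to 0.41, and the sets were not tested against each other.

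**Figure D2:**
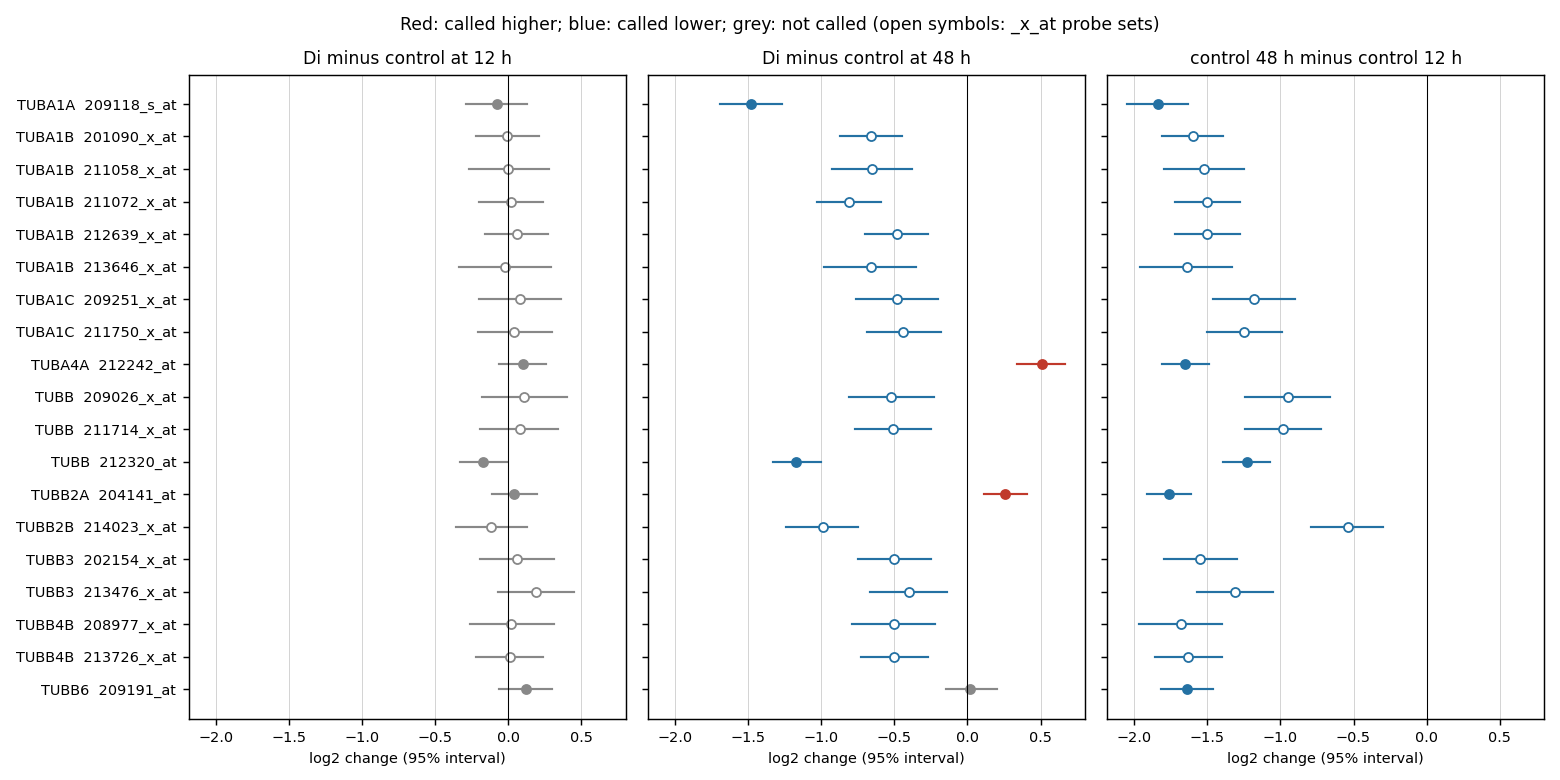
Log2 differences of the 19 tubulin probe sets with 95% intervals from limma (horizontal axis), for Di over control at 12 h (left) and at 48 h (middle) and for the later over the earlier control cultures (right). Filled symbols are sets without the _x_at suffix; none was called at 12 h, 16 were lower (blue) and 2 higher (red) in Di at 48 h, and all 19 were lower in control cultures at 48 h than at 12 h.

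Levels of several marker genes moved along with the tubulins at 48 h. The summed level of the 6 fibroblast markers, carried by the 3 above the floor (COL1A1, DCN and LUM), was 10.10 to 10.17 in Di arrays and 10.92 to 11.05 in control arrays on the log2 scale, with COL1A2, PDGFRA and PDGFRB under the floor in each group. The 7 epithelial markers summed to 13.72 to 13.85 in Di arrays and 14.10 to 14.24 in controls, and all 7 were above the floor. They did not move one way: EPCAM (12.40 in Di and 13.05 in control), KRT19 (10.23 and 11.42), CDH1 (6.74 and 8.07) and CDH2 (8.13 and 9.11) averaged lower in Di, and KRT8 (10.68 and 10.55), KRT18 (12.41 and 12.21) and KRT7 (6.78 and 6.66) higher. For the 10 neuronal markers the sums were 9.89 to 10.07 in Di arrays and 10.05 to 10.18 in controls, which overlap. Here SNAP25 (7.83 in Di and 9.00 in control) and NEFL (2.91 and 4.19) averaged lower in Di and SYT1 (9.49 and 9.04) higher, while ELAVL3 was at 4.30 and 4.33. The Di mean of NEFL lay under the floor of 4 and its control mean just above it, so that the size of its difference is uncertain. The sum over the 10 proximal tubule markers, all but PAX8 under the floor, was 9.72 to 9.94 in Di arrays and 9.46 to 9.49 in controls. The part of these shifts in the tubulin differences was not tested. All cells were of 1 line. In such bulk RNA, fewer cells that express a gene and less of its RNA per cell cannot be told apart. RNA quality was close between the groups at 48 h: the gap between 3′ and 5′ actin probe sets averaged 1.41 ± 0.0776 in Di arrays and 1.33 ± 0.128 in controls (SD, n = 3 each, two-sided exact permutation p = 0.5, smallest possible 0.1).

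Whether the difference between Di and control itself differed between the times was tested as an interaction. Over all probe sets 33.7% were called, 16.5% with a positive and 17.2% with a negative interaction. Of the 19 tubulin sets, 16 were called with a negative interaction and TUBA4A with a positive one, and TUBB2A and TUBB6 were not called. The median was -0.58, against 0.01 over all probe sets. The most negative were TUBA1A at -1.40 ± 0.134 (SE, limma, adjusted p = 2.18e-05) and the TUBB set 212320_at at -1.0 ± 0.104 (adjusted p = 4.25e-05). TUBA4A had 0.40 ± 0.103 (adjusted p = 0.0117). For TUBB2A the interaction was 0.21 ± 0.0976 (adjusted p = 0.117), so that its increase at 48 h was not shown to differ from its value at 12 h.

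Single arrays bore on this count. Instead of 16 sets, 9 were called with a negative interaction without the third control array at 48 h and 10 without the second control array at 12 h. The estimates of all 16 stayed negative in each of their 18 alternatives, and the positive call of TUBA4A was kept in each of its 18. The sets that lost the call in at least 1 alternative were all _x_at sets, of TUBA1B, TUBA1C, TUBB, TUBB3 and TUBB4B. The largest interactions, those of TUBA1A, TUBB on 212320_at, TUBB2B and TUBA1B on 211072_x_at, were called in every alternative tried.

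The control cultures also differed between the times. In these cultures all 19 sets were lower at 48 h than at 12 h, by -1.84 to -0.54 with a median of -1.52, while the median over all probe sets was -0.01. Over the whole array 47.7% of probe sets were called in this comparison, 22.4% higher and 25.4% lower at 48 h. No tubulin set had overlapping groups, against 61.5% of all probe sets without overlap. Sums of the marker lists also differed between these controls. That of the fibroblast markers was 10.92 to 11.05 at 48 h, against 11.93 to 12.04 at 12 h. The proximal tubule sum was also lower, at 9.46 to 9.49 against 9.62 to 9.74. The epithelial sum was higher at 48 h, at 14.10 to 14.24 against 13.93 to 14.01. So was the neuronal sum, at 10.05 to 10.18 against 9.77 to 9.89. Members of the epithelial and neuronal lists did not all move one way. The gap between 3′ and 5′ actin probe sets was smaller in controls at 48 h (1.37, 1.43 and 1.19) than at 12 h (1.55, 1.90 and 1.69). These groups did not overlap. The part of the marker shifts and of the actin gap in the tubulin differences over time was not tested.

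TUBA1A had the largest difference over time, with 12.18, 12.35 and 12.42 in controls at 48 h, against 14.10, 14.12 and 14.24 in controls at 12 h. That is -1.84 ± 0.0946 (SE, limma, adjusted p = 1.09e-07), a 3.58-fold lower level at 48 h. TUBB2A followed with -1.76 ± 0.069, then the TUBB4B set 208977_x_at with -1.68 ± 0.129 and TUBA4A with -1.65 ± 0.0728. TUBB6, not called between Di and control at 48 h, was lower by -1.64 ± 0.0807. The smallest difference was that of TUBB2B, with 8.51, 8.57 and 8.60 in controls at 48 h, against 9.00, 9.19 and 9.12 in controls at 12 h, or -0.54 ± 0.111 (limma, adjusted p = 0.00202). TUBB2B was the single set whose difference between Di and control at 48 h was larger in size than its difference over time in controls, and the pair was not set against each other in a test.

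In Di cultures the differences between 48 h and 12 h, given as a description, ran from -3.24 for TUBA1A to -1.25 for TUBA4A. The TUBA4A difference was smaller in Di (-1.25) than in control (-1.65). For TUBB2A the values were -1.55 in Di and -1.76 in control, and for TUBB6 -1.74 in Di and -1.64 in control. The 16 sets called with a negative interaction lost more in Di, as with TUBB on 212320_at (-2.22 in Di and -1.23 in control) and TUBB2B (-1.42 in Di and -0.54 in control).

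The order of the 4 groups followed from these differences. In all 19 sets both 12 h groups lay above both 48 h groups with no overlap between the times. Between the 48 h groups, Di lay below control without overlap in 16 sets and above it without overlap in TUBA4A and TUBB2A, and the groups overlapped in TUBB6. Between the 12 h groups the neighbours overlapped in all but 4 sets, those of TUBA1A, TUBA4A, TUBB6 and TUBB on 212320_at. TUBB6 read 11.07, 11.03 and 11.11 in Di arrays at 12 h, against 11.00, 10.92 and 10.92 in controls. Its Di arrays were all higher, by a mean of 0.12 ± 0.0807 that was not called.

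The _x_at sets of different tubulin genes moved together from array to array, also within groups. After each group's mean was subtracted, the 64 pairs of such sets from different genes, TUBB2B left out, correlated at a median of 0.90 over the 12 arrays, from 0.57 to 0.97. Among the 5 other sets, the 10 pairs correlated at a median of 0.08, from -0.62 to 0.54. These correlations are descriptions: the pairs share arrays and, for the _x_at sets, possibly transcripts and probes. TUBB2B did not follow the others, so that with it included the lowest correlation was -0.69 over 77 pairs.

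The deviations stood out on the second Di array at 12 h, where the 13 _x_at sets lay a median of 0.24 above their group means, from 0.15 to 0.32. On the same array the 5 other sets lay between -0.04 and 0.03 of theirs. That array also had the smallest gap between 3′ and 5′ actin probe sets at 12 h, 0.95, against 1.32 and 1.40 on the other Di arrays and 1.55, 1.90 and 1.69 on the controls. The mean gap at 12 h was 1.22 ± 0.239 in Di arrays and 1.71 ± 0.178 in controls (SD, n = 3 each, two-sided exact permutation p = 0.1, the smallest possible). Its part in the _x_at readings was not tested. Without that array the 12 h comparison still called none of the 19 sets. On the third control array at 48 h, the _x_at sets lay a median of 0.16 and the others 0.10 above their group means.

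**Figure D3:**
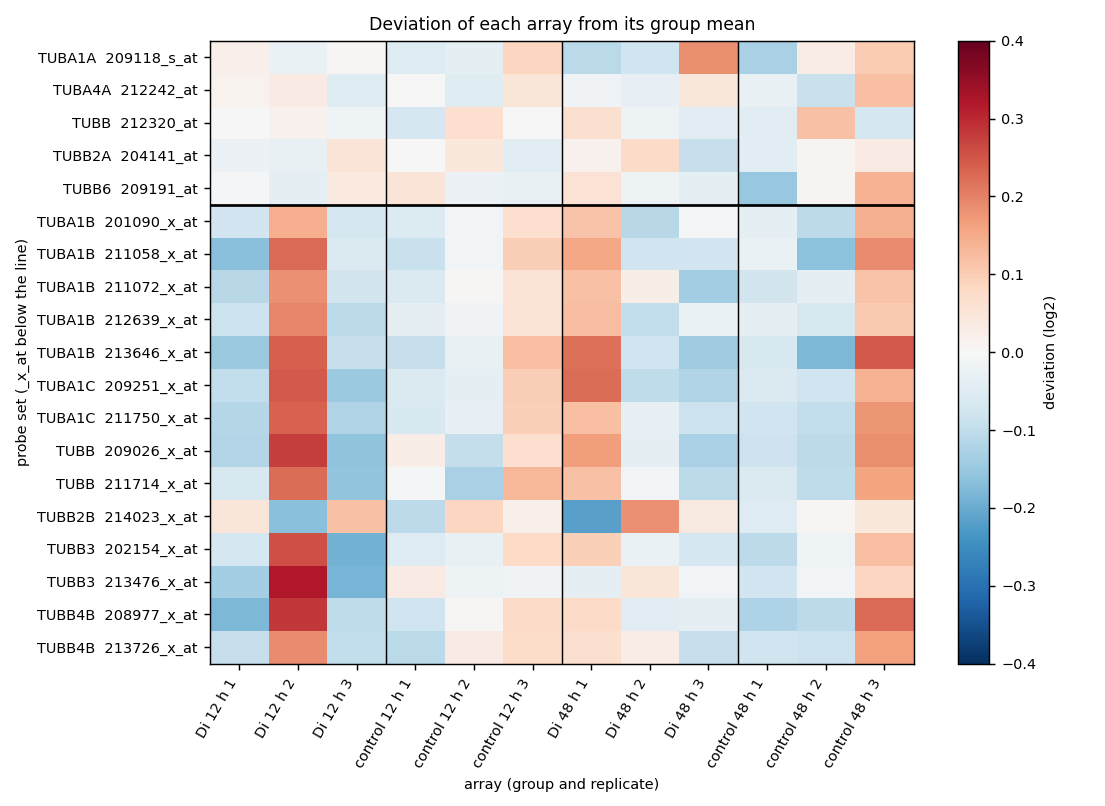
Deviation of each array from the mean of its group (colour, log2) for the 19 tubulin probe sets, with sets lacking the _x_at suffix above the line and _x_at sets below it, and arrays in columns by group and replicate. The second Di array at 12 h is high on 13 of the 14 _x_at sets, by 0.15 to 0.32, and near 0 on the upper 5 sets.

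Genes with the same profile over the arrays were looked up for the tubulins with the largest increase and the largest decrease at 48 h, among 10610 genes. Closest to TUBA4A were S100A10, a partner of annexin A2 (Pearson r = 0.994), PPIH, a cyclophilin of the spliceosome (0.992), and SNRPF, a core protein of the spliceosome (0.987). Their log2 differences at 48 h were 0.27, 0.19 and 0.22, smaller than the 0.51 of TUBA4A. Closest to TUBA1A were the chromatin protein HMGA2 (0.998), RMI1 of the BLM helicase complex (0.998) and the histone chaperone ASF1B (0.997). HMGA2 averaged 9.77 in Di arrays at 48 h and 11.13 in controls, and ASF1B averaged 3.80 in Di arrays, under the floor of 4, and 6.12 in controls. Each r is over 12 arrays that share the same group differences, and is a description of likeness.

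Genes that fold, modify, nucleate or sever tubulin were followed in 7 lists with 75 genes, of which 56 had a tested probe set. The brightest set without the _x_at suffix stood for a gene, or its brightest _x_at set where it had no other. At 48 h 11 of the 56 were higher and 15 lower in Di, against 21.2% and 24.8% of all probe sets. At 12 h 1 was higher and 4 were lower, against 4.90% and 6.97% of all probe sets. Between 48 h and 12 h in controls, 12 were higher and 29 lower at 48 h, against 22.4% and 25.4%.

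The CCT chaperonin, the ring that folds actin and tubulin, had 4 of 7 measured subunits higher in Di at 48 h and none lower. Over all probe sets 21.2% were called higher and 24.8% lower. The median difference of the 7 subunits was 0.25. CCT5 averaged 12.52 ± 0.113 in Di arrays and 11.84 ± 0.108 in controls (SD, n = 3 each), a difference of 0.67, although its other probe set gave 0.11 and was not called. CCT3 was higher by 0.52, CCT7 by 0.41 and CCT4 by 0.25. CCT4 lost its call after quantile normalisation and without the first control array at 48 h (largest limma adjusted p over all alternatives 0.0902). The other set of CCT4 gave 0.66 and was called. In controls 6 of the 7 subunits were lower at 48 h than at 12 h, against 25.4% of all probe sets, with a median of -0.37.

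Prefoldin, which hands new chains to CCT, had 1 of 5 subunits higher and 1 lower in Di, against 21.2% and 24.8% of all probe sets. PFDN2 averaged 11.08 ± 0.156 in Di arrays and 10.17 ± 0.0851 in controls (SD, n = 3 each), a difference of 0.91 ± 0.118 (SE, limma, adjusted p = 8.55e-05). PFDN5 was lower by -0.26. Among the 9 cofactors and regulators of tubulin, 2 were higher and 3 lower, against the same 21.2% and 24.8%, with a median of -0.03. TBCE, which helps to form the dimer, was higher by 0.43, and its relative TBCEL, which destabilises tubulin, by 0.68. TBCD, another dimer cofactor, was lower by -0.40, and its partner GTPase ARL2 by -0.43. Other sets of TBCD gave -0.31 and -0.24 and were not called, and TBCD also lost its call after quantile normalisation (limma adjusted p = 0.0656). TBCEL lost its call in 4 of 19 alternatives (largest limma adjusted p 0.0684), but its other set gave 1.14 and was called.

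TTC5, the factor that reads nascent tubulin, was not called at 48 h (-0.03 ± 0.104, limma adjusted p = 0.833). At 12 h it read 6.76, 6.43 and 6.79 in Di arrays, against 6.22, 5.96 and 5.99 in controls. All 3 Di arrays were above all controls, and the difference of 0.60 ± 0.104 was called (SE, limma, adjusted p = 0.00653), except when the 12 h arrays were fitted alone (adjusted p = 0.0574). Its second probe set, dim at 4.28 to 4.35 in those Di arrays and 4.31 to 4.59 in controls, gave -0.10 and was not called.

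Among the genes of the 7 lists, the largest decreases called at 48 h were those of the stathmins STMN1 and STMN3. Of 7 measured stathmins and severing enzymes, 3 were lower and 1 higher in Di at 48 h, against 24.8% and 21.2% of all probe sets. STMN1, the stathmin that binds free tubulin dimers, read 6.31, 6.11 and 6.26 in Di arrays, against 7.97, 7.99 and 7.91 in controls. That is a difference of -1.73 ± 0.0833 (SE, limma, adjusted p = 4.41e-08), with no overlap. The related STMN3 was lower by -1.53 and the severing enzyme KATNA1 by -0.62, while FIGNL1, of the same ATPase family, was higher by 0.56. STMN1 and STMN3 were also lower in controls at 48 h than at 12 h, by -1.64 and -1.39.

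Of 14 measured enzymes that modify tubulin, 1 was higher and 5 were lower, against 21.2% and 24.8% of all probe sets, with a median of -0.21. After quantile normalisation 4 were lower and the median was -0.13. TPGS2, a subunit of a polyglutamylase, was lower by -1.15, TTL, which adds tyrosine back to alpha tubulin, by -0.60, and the deacetylase SIRT2 by -0.49. Other sets of TPGS2 gave -1.10 and -0.94, called lower, and -0.12, not called. The other set of SIRT2 gave 0.08 and was not called. TTLL7, a polyglutamylase of beta tubulin, was called in opposite directions by its pair of sets, at 1.23 and -0.74.

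The complex of gamma tubulin, which starts new microtubules, had 2 of 11 members higher and 2 lower at 48 h, with a median of -0.09. Over all probe sets 21.2% were called higher and 24.8% lower. TUBG1 itself was lower by -0.29 and TUBGCP5 by -0.36, and TUBGCP4 was higher by 0.40 on one set and at -0.27, not called, on another. TUBG1 kept its call in 17 of 19 alternatives and TUBGCP5 in 14 of 19, and after quantile normalisation the list's median was 0.01. The other set of TUBGCP5 gave -0.76 and was called. CDK5RAP2, which activates the complex, was lower in Di at 12 h by -0.79 ± 0.0985 (SE, limma, adjusted p = 0.00206) and higher in Di at 48 h by 0.79 ± 0.0985 (adjusted p = 5.91e-05). Of the other tubulins, 3 of 10 were measured and 1, TUBB4A, was called. It read 3.00, 2.89 and 2.96 in Di arrays at 48 h, all under the floor of 4, against 4.06, 4.53 and 3.89 in controls. The last of these was also under the floor. TUBB4A was called lower (limma, adjusted p = 0.000302), but levels this near the floor do not give the size of the difference. After quantile normalisation, 1 of these 3 tubulins was called higher in Di at 48 h and 1 lower.

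**Figure D4:**
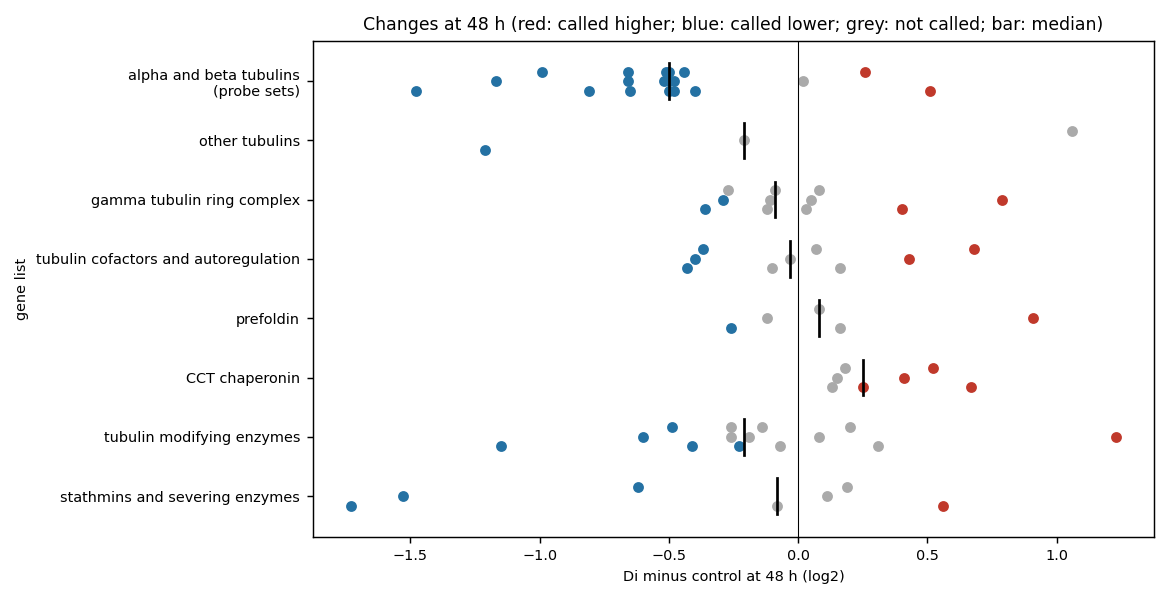
Log2 difference of Di minus control at 48 h (horizontal axis) for the 19 probe sets of the 10 alpha and beta tubulin genes and for the measured genes of 7 related lists, 1 point per probe set or gene, with a bar at each median. Points called higher are red, called lower blue and not called grey; the tubulin median lies at -0.50 and that of the CCT chaperonin at 0.25.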

How the data were processed

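The deposited values are log2 expression levels, 1 per probe set and array, made with GCRMA (version not given) per the submitters' processing notes. GCRMA corrects background, scales the arrays to each other and summarises the probes of a set. Changes in total RNA per cell are thus not visible, and dim sets are shrunk towards a common low level. No further normalisation was applied for the values reported.

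Of 54675 probe sets, 62 control sets were removed and 21715 exceeded log2 4 in at least 3 of 12 arrays. Genes were named from the platform annotation: 41097 sets carry 1 symbol, 1801 several and 11777 none, and sets with several name no gene. Each kept set was fitted with limma 3.58.1 in R 4.3.3, 1 mean per group over all 12 arrays, tested two-sided and adjusted by Benjamini-Hochberg over all kept sets. The fit was tested on simulated data first. Python 3.11.15 made the summaries and figures. No 2 arrays were identical.

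The 10 genes and the related lists were chosen with earlier results of these data known. Named in the text are the 10 genes, in each list the called genes with the 4 largest differences at 48 h, TTC5 whatever its value, and the 3 genes most like the tubulins with the largest increase and decrease. The labels call the replicates biological but tie no array to a batch. Protein and probe sequences were not used here. Alternatives were no filter, a floor of 6, other moderation and scaling, fits within 1 time, other ways to join probe sets, a replicate block and leaving out each array.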

Additional observations from a re-analysis of the deposited data

Results flagged for a closer look

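For 17 of the 19 tubulin probe sets the difference between Di and control differed between 48 h and 12 h by the interaction test in limma, and these values, the 48 h difference minus the 12 h difference on the log2 scale, are given by gene. Among the alpha tubulins TUBA1A had -1.40, the 5 sets of TUBA1B had -0.65, -0.65, -0.83, -0.54 and -0.64, and the sets of TUBA1C had -0.56 and -0.48. TUBA4A alone was positive, at 0.40. Among the beta tubulins, TUBB had -0.63 and -0.58 on its _x_at sets and -1.0 on 212320_at, and TUBB2B had -0.88. TUBB3 had -0.56 and -0.59, and TUBB4B had -0.53 and -0.51. Over all probe sets 33.7% were called in this test. Groups of 3 arrays were too small to test single arrays as outliers.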

How the results depend on the processing

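Of 1425 values recomputed for the 19 tubulin sets, 1377 kept their call and none was reversed, while 26 that were called in neither setting changed sign. Of the 48 that lost a call, 47 were interactions and 1 was TUBB3 at 48 h. Of 27 values named for genes of the lists, 21 kept their call in every alternative run and none was reversed. With 1 probe set per gene, either the brightest or the mean of all, 7 of 10 genes were called lower in Di at 48 h. By the same ways 7 of 10 were called with a negative interaction and 10 of 10 were called lower in controls at 48 h than at 12 h. On the 4 sets without _x_at or _s_at, these counts were 1, 1 and 4, while 2 of the 4 were called higher in Di at 48 h and 1 was called with a positive interaction. Fewer sets or genes are counted in these settings. With no filter on low levels, 10 of 19 sets were called with a negative interaction. The sets that lost the call had the same log2 values as with the filter and a higher adjusted p, in a fit over 54613 probe sets. Which step of that fit raised the adjusted p was not tested. Leaving out 1 array gave 9 to 16 sets called with a negative interaction and 15 to 16 called lower in Di at 48 h. For the lists at 48 h it gave 9 to 12 genes called higher and 12 to 16 lower.

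Replicate numbers did not pair the arrays: deviations of same-numbered Di and control arrays correlated at 0.155, -0.045 and -0.204 at 12 h and at -0.033, 0.128 and -0.266 at 48 h. With a replicate block, 2 sets were called higher and 16 lower in Di at 48 h, and none was called at 12 h. In that fit 12 rather than 16 were called with a negative interaction, and 19 were lower in controls at 48 h.

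The number of all probe sets called at 12 h was the least stable, at 2579 as reported and 784 in a fit of the 12 h arrays alone. It came to 589 higher and 904 lower without the third Di array at 12 h, 451 and 715 without the second control array at 12 h, 523 and 741 without the third, and 712 and 987 with a replicate block. With 1 value per gene, 10626 were tested, and the calls were 396 higher and 1021 lower at 12 h by the brightest set (27.9% higher) and 482 and 872 by the mean. By the same 2 ways they were 2428 and 2975, or 2453 and 3033, at 48 h, 2088 and 1954, or 2031 and 2122, for the interaction, and 2314 and 3307, or 2555 and 3188, for time in controls. With 3 arrays a group, the precision is limited by the number of arrays.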
